A study of Mus musculus with 7 samples.

Results

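The 10 genes Bcl2, Bcl2l1, Mcl1, Bax, Bak1, Bid, Bad, Bbc3, Pmaip1 and Bcl2l11 encode survival and death proteins of the Bcl2 family. They were taken by symbol from a table of gene expression in EML cells, and all 10 were found among its 20142 symbols listed once. EML is an established mouse line of haematopoietic progenitors that is kept in stem cell factor and can give rise to erythroid, myeloid and lymphoid cells. RNA was sequenced from 3 libraries of CD34-positive and 4 libraries of CD34-negative cells, both sorted from the line with no treatment named in the labels. Both groups held only cells that did not bind Annexin V, a protein that marks the surface of apoptotic cells, so dying cells had been removed before RNA was taken. The labels also give both groups the strain C57BL/6, a bone marrow tissue and a postnatal age, although the source label names the line. The genotype label of the CD34-negative libraries reads CD43, and their titles, which read CD34, were followed.

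The Bcl2 family controls whether the outer membrane of mitochondria becomes permeable and releases the proteins that switch on caspases. Survival members such as Bcl2, Bcl2l1 (Bcl-xL) and Mcl1 hold the pore-forming effectors Bax and Bak1 in check, and BH3-only members such as Bid, Bad, Bbc3 (Puma), Pmaip1 (Noxa) and Bcl2l11 (Bim) carry stress signals that release or activate the effectors. In blood formation Mcl1 is required for the survival of stem and progenitor cells, and Bcl2l1 for that of maturing erythroid cells.

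Values are in FPKM, which divides the fragments of a gene by its transcript length and by the depth of the library. The depth itself is unknown, and no counting error can be given. In bulk RNA, fewer cells of a type and less RNA per cell cannot be told apart. Beside the title numbers, the descriptions carry a number that recurs across the groups, and libraries of equal number were taken as belonging together. CD34-positive replicate 1 (3a) and CD34-negative replicate 1 (3) carry number 3, and both replicate 2 libraries carry number 2. CD34-positive replicate 3 carries number 4 with CD34-negative replicates 3 (4) and 4 (4a). The letter a was ignored in this matching. The sort was seen in Cd34 itself, which stood at 147, 256 and 153 FPKM in CD34-positive replicates 1, 2 and 3, against 91.8, 19.3, 2.67 and 6.02 FPKM in CD34-negative replicates 1, 2, 3 and 4. Thus the number 3 pair differed least in the sorted marker. The number 4 libraries of both groups stood apart from the others, with 2.24% to 4.13% of their summed FPKM in ribosomal protein genes, against 27.7% to 37.1% in numbers 2 and 3, and with 8.09% to 39.5% in small RNA genes, against 0.0700% to 0.303%. Of 10 erythroid markers 9 were listed and 8 tested. Of these 8, 6 were lower in CD34-positive than in CD34-negative libraries without overlap, Epor among them, against 3.01% of all tested genes. Gata1 stood at 4.61 to 24.0 FPKM in CD34-positive and 55.8 to 167 FPKM in CD34-negative libraries. The summed erythroid FPKM overlapped (125 to 734 in CD34-positive and 211 to 2166 in CD34-negative libraries). The 8 mast cell markers summed to 2440 to 3476 FPKM in CD34-positive and 1867 to 10956.5 FPKM in CD34-negative libraries, the 8 neutrophil and monocyte markers to 1241 to 2360 and 124 to 1313 FPKM, and the 8 stem and progenitor markers to 720 to 856 and 351 to 1002 FPKM. Single genes of these lists differed where the sums overlapped. Of 7 tested mast cell markers 4 were lower in CD34-positive libraries without overlap (3.01% of all tested genes). At an unadjusted p under 0.05 in limma, 4 of 5 tested neutrophil and monocyte markers were higher. So were 5 of 8 stem and progenitor markers, Cd34 among them, and 1 was lower (Gata2). The shares of all tested genes were 3.38% higher and 2.27% lower. Of markers for other cell types, 7 of 8 lymphoid and 5 of 6 listed macrophage genes stayed under 1 FPKM in every library, with Cd3e, Ebf1, Pax5 and C1qa listed at 0. So did 5 of 7 stromal and endothelial genes (summed FPKM 97.2 to 160 in CD34-positive and 52.96 to 134 in CD34-negative libraries; Col1a2, Cxcl12 and Kdr at 0) and 5 of 6 hepatocyte genes (149 to 197 and 35.1 to 164; Alb, Ttr and Serpina1a at 0). The part of the lineage markers and of the kind of library in the results below was not tested.

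All 10 members reached 1 FPKM in at least 3 libraries and were among the 9259 genes tested. Log2 differences are of log2(FPKM + 1), CD34-positive minus CD34-negative. At a threshold of 0.05 for the adjusted p from limma, 0 members were called higher and 0 lower, where the background was 0% of the 9259 genes. At an unadjusted p under 0.05, 0 members were called, against 5.65% of all tested genes. With the number as a block, again 0 members passed the adjusted threshold (background 0%), and 5 of 10 lay under an unadjusted p of 0.05, 3 higher (Bcl2l1, Pmaip1 and Bcl2l11) and 2 lower (Bax and Bid), against 12.8% of tested genes higher, 9.14% lower and 22% either way. The values of the groups overlapped for every member, where 5.68% of tested genes did not overlap, 2.67% higher and 3.01% lower. The median difference of the members was 0.11 on the log2 scale (0.02 with the block), close to 0.09 (0.04 with the block) over all tested genes.

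Between libraries of equal number the members split by direction. In all 4 such differences (number 2, number 3, and CD34-positive replicate 3 against each CD34-negative number 4 library), Bcl2l1, Mcl1, Pmaip1 and Bcl2l11 had higher values in CD34-positive cells, and Bax, Bak1, Bid, Bad and Bbc3 had lower values. Only Bcl2 changed sign, in number 3. These 9 of 10 members compare with 40.3% of tested genes that kept 1 sign throughout, 21.4% higher and 18.9% lower. The same 9 split the same way under median-ratio scaling and quantile normalization. When FPKM were rescaled to the sum without ribosomal protein genes, a sum in which small RNA genes weigh heavily in the number 4 libraries, the 4 higher members stayed and only Bax stayed among the lower ones, against 32.2% of tested genes higher and 6.17% lower. When small RNA genes were left out of that sum as well, all 9 kept their directions. Without number 2 or without number 4 the count was again 9 (46.7% and 70.7% of tested genes), and without number 3 it was 10 (51% of tested genes), Bcl2 joining the higher ones.

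The sequence before the first annotated start is shown for Bcl2l1 and for Bax and Bid, which ran against it and lay under an unadjusted p of 0.05 with the block. The stretches come from RefSeq for GRCm38.p6, are read 5′ to 3′ on the minus strand, and leave off any base that GENCODE M21 annotates as transcribed. Capitals mark letters that a GATA factor can bind (AGATAA or AGATAG or TGATAA or TGATAG, on either strand). They were chosen because Gata1 was lower in CD34-positive libraries without overlap (adjusted p = 0.532 in limma, 0.0931 with the block). Gata2, another GATA factor, was also lower without overlap, at 56.8 to 120 FPKM in CD34-positive and 242 to 415 FPKM in CD34-negative libraries. A link of Gata1 or Gata2 to these genes was not tested.
Bcl2l1, chr2:152831729-152831978: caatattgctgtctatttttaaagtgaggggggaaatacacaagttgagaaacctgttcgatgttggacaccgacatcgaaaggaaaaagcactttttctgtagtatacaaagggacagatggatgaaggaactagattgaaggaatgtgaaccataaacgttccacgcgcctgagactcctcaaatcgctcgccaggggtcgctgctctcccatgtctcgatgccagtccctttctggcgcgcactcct
Bax, chr7:45466899-45467148: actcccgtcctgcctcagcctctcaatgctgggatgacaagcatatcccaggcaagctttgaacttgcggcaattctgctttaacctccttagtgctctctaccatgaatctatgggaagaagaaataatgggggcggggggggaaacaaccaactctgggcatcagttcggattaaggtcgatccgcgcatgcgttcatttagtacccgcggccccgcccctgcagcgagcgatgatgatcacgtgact
Bid, chr6:120916854-120917074: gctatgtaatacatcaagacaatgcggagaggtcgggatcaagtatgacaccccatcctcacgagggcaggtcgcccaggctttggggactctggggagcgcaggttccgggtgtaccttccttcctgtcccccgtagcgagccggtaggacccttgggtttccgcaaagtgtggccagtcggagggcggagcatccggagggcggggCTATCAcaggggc
The only match in these stretches was in Bid, 42 bases before its RefSeq start. GC content was 47.6% for Bcl2l1, 54.0% for Bax and 62.4% for Bid, against a median of 52.7% over all RefSeq windows from 250 bases before to 50 after a start. Such windows were listed for 9 members (15 windows), and 2 held the GATA letters, the window of Bid and that of a Bcl2l1 start inside the gene, where 29.8% of 32851 windows did. The STAT letters TTCNNNGAA were in 0 of the 15 and in 8.30% of all windows. A match is a description of letters and not of binding.

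**Figure D1:**
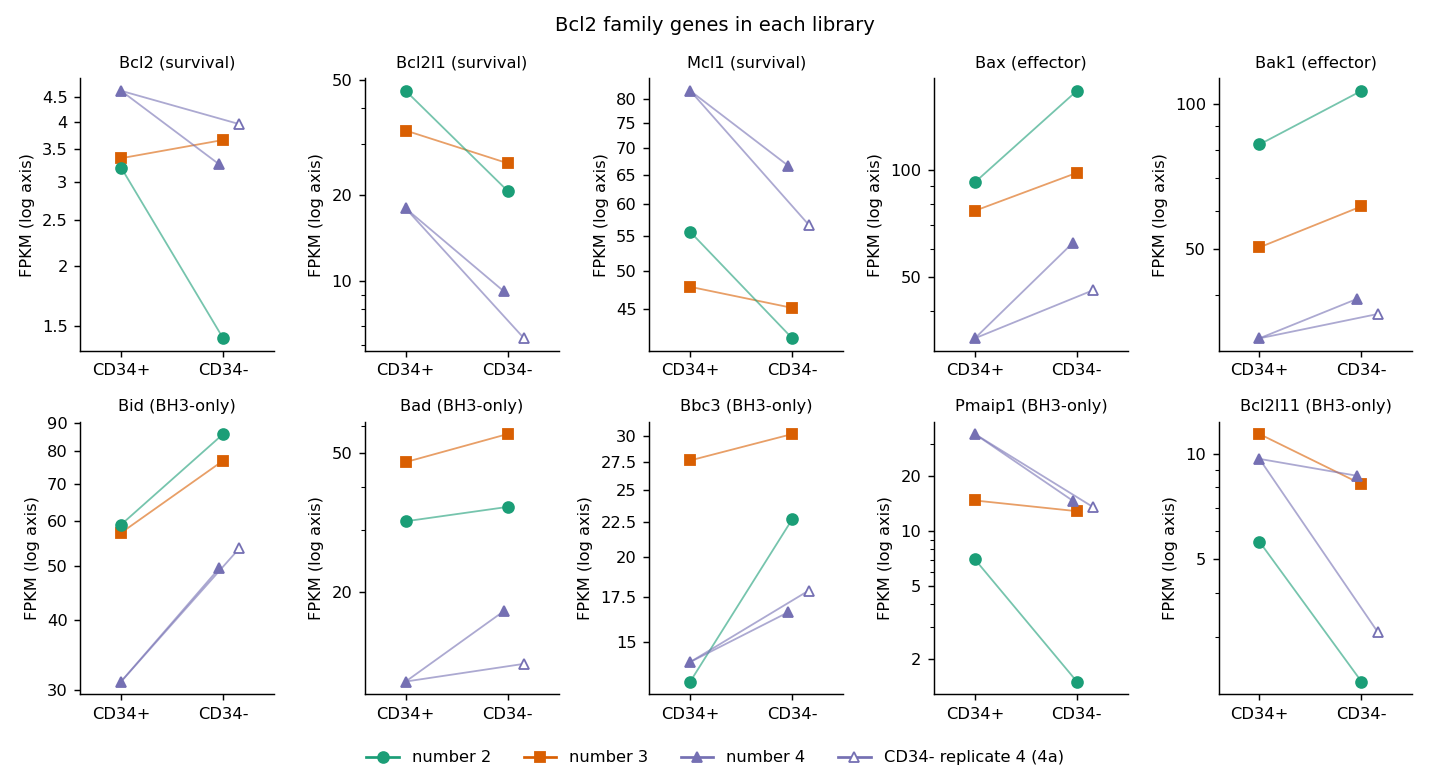
FPKM of the 10 members (log axes, a scale for each gene) in 3 CD34-positive (left) and 4 CD34-negative libraries (right); each point is a library and lines join libraries of equal number. The lines of Bcl2l1, Mcl1, Pmaip1 and Bcl2l11 all slope down to CD34-negative cells and those of Bax, Bak1, Bid, Bad and Bbc3 all slope up, while the levels of different numbers overlap between the groups.

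Among the survival members, Bcl2l1 differed most. It stood at 33.5, 46.0 and 17.9 FPKM in CD34-positive replicates 1, 2 and 3, against 25.8, 20.6, 9.25 and 6.34 FPKM in CD34-negative replicates 1, 2, 3 and 4. Within each number the CD34-positive library was the higher one, but CD34-positive replicate 3, the lowest of its group, lay under CD34-negative replicates 1 and 2. Its mean was 32.5 ± 14.1 FPKM (SD, n = 3) with CD34 and 15.5 ± 9.21 FPKM (SD, n = 4) without it, and the log2 difference of 1.12 (SE 0.53) did not pass (adjusted p = 0.971 in limma; 0.90, SE 0.21, adjusted p = 0.0951 with the block). The log2 difference was 1.12 in number 2, 0.37 in number 3, and 0.89 and 1.37 for CD34-positive replicate 3 against CD34-negative replicates 3 and 4. The gene makes a long survival form and a short form that promotes death, which FPKM per gene do not separate.

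Mcl1, a short-lived survival protein, was the most abundant of the 3 survival members per length in every library. Its level was 47.8, 55.6 and 81.9 FPKM in CD34-positive replicates 1, 2 and 3, against 45.1, 41.5, 66.7 and 56.7 FPKM in CD34-negative replicates 1, 2, 3 and 4. It was higher in the CD34-positive library of each number, and in both groups highest in number 4. The mean was 61.8 ± 17.9 FPKM (SD, n = 3) in CD34-positive libraries, against 52.5 ± 11.5 FPKM (SD, n = 4) in CD34-negative libraries, a log2 difference of 0.22 (SE 0.35), smaller than its error (adjusted p = 0.9999 in limma; 0.31, SE 0.14, adjusted p = 0.259 with the block). Without CD34-positive replicate 3 that difference was -0.00126.

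Bcl2, which gave the family its name, was the least abundant member in CD34-positive cells, at percentile 16.5 of the tested genes by its mean there. It stood at 3.36, 3.21 and 4.64 FPKM in CD34-positive replicates 1, 2 and 3, against 3.66, 1.42, 3.26 and 3.95 FPKM in CD34-negative replicates 1, 2, 3 and 4. CD34-negative replicate 2 was the low library, and the others lay within a narrow range in both groups. The log2 difference was 0.26 (SE 0.32; adjusted p = 0.9999 in limma, 0.374 with the block), with 0.80 in number 2 and -0.10 in number 3. It was 0.02 without CD34-negative replicate 2 and 0.13 without CD34-positive replicate 3.

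The summed FPKM of Bcl2, Bcl2l1 and Mcl1 was 84.7, 104.9 and 104.5 in CD34-positive replicates 1, 2 and 3, against 74.6, 63.6, 79.2 and 67.0 in CD34-negative replicates 1, 2, 3 and 4. The groups did not overlap as deposited, but they did under median-ratio scaling, where the lowest CD34-positive sum was 70.1 and the highest CD34-negative one 88.9, and under both rescalings. The share of each gene in that sum does not depend on scaling. Bcl2l1 held 39.5%, 43.9% and 17.2% of the sum in CD34-positive replicates 1, 2 and 3, against 34.5%, 32.4%, 11.7% and 9.45% in CD34-negative replicates 1, 2, 3 and 4. Its share was larger in CD34-positive cells within each number, and in number 4 of both groups Mcl1 held 78.4% to 84.7%.

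**Figure D2:**
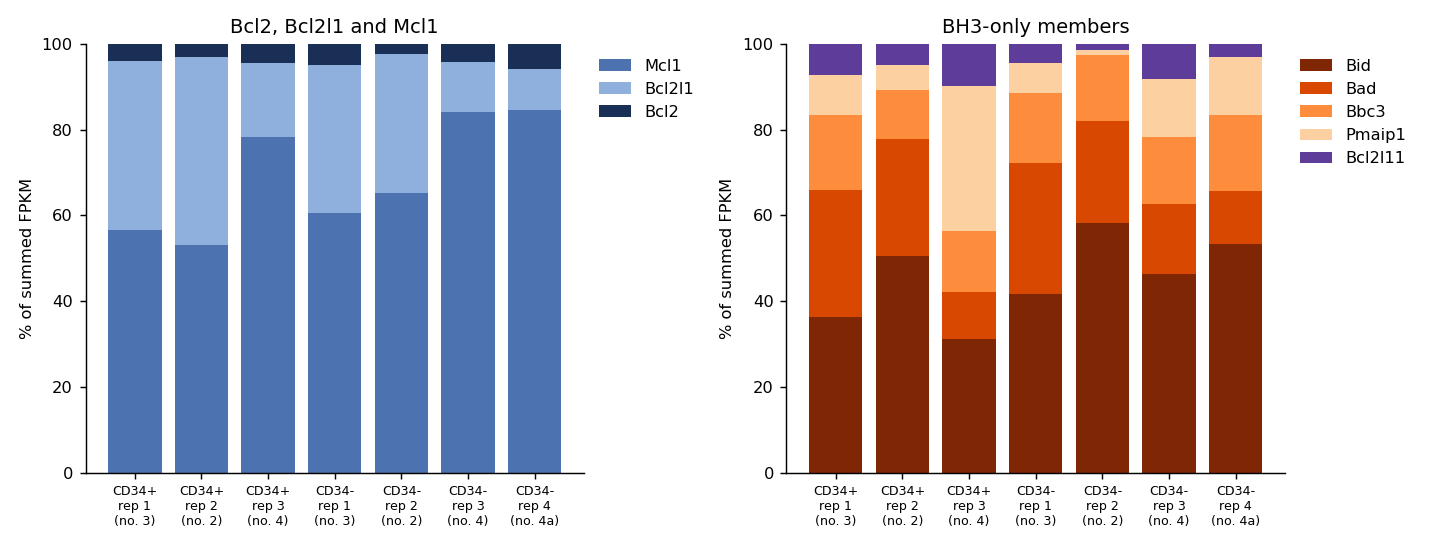
Share of each gene (% of summed FPKM) in the sum of Bcl2, Bcl2l1 and Mcl1 (left) and of the 5 BH3-only members (right), 1 bar per library with its number below. Bcl2l1 takes 17.2% to 43.9% in CD34-positive and 9.45% to 34.5% in CD34-negative libraries, and Pmaip1 takes 34.02% of the BH3-only sum in CD34-positive replicate 3.

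Of the effectors, Bax had lower values in the CD34-positive library of each number. It stood at 76.7, 92.2 and 33.6 FPKM in CD34-positive replicates 1, 2 and 3, against 98.1, 167, 62.3 and 45.9 FPKM in CD34-negative replicates 1, 2, 3 and 4. Number 4 libraries were the lowest of both groups, and the groups overlapped. The mean was 67.5 ± 30.4 FPKM (SD, n = 3) in CD34-positive libraries, against 93.3 ± 53.6 FPKM (SD, n = 4) in CD34-negative libraries, and the log2 difference of -0.41 (SE 0.55) did not pass (adjusted p = 0.9999 in limma). With the block it was -0.62 (SE 0.17, adjusted p = 0.111). Without CD34-positive replicate 3 and without the block it was 0.02.

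Bak1, the other effector, ran parallel to Bax with smaller differences. Its level was 50.3, 82.2 and 32.6 FPKM in CD34-positive replicates 1, 2 and 3, against 61.2, 106, 39.4 and 36.6 FPKM in CD34-negative replicates 1, 2, 3 and 4. Both replicate 2 libraries were the highest and the number 4 libraries the lowest. The log2 difference was -0.11 (SE 0.49; adjusted p = 0.9999 in limma) and -0.28 (SE 0.12, adjusted p = 0.2499) with the block, and it was 0.20 without CD34-negative replicate 2 and 0.21 without CD34-positive replicate 3. After the number means were taken out, Bak1 and Bax had a Pearson correlation of 0.95 over the 7 libraries. It is given as a description of values that share libraries and scaling, and the difference between the groups was left in.

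**Figure D3:**
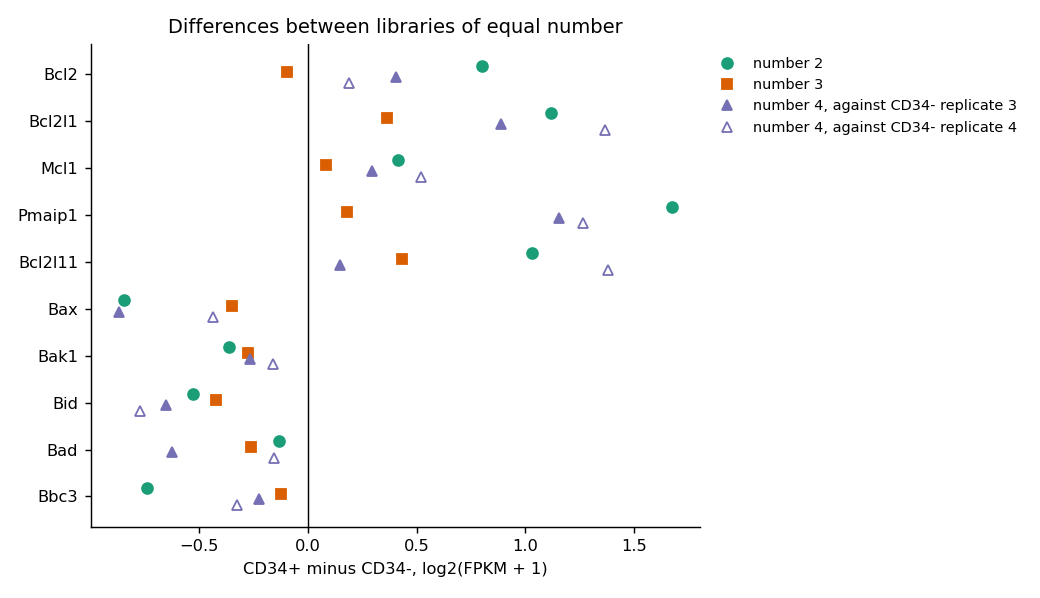
Difference of log2(FPKM + 1), CD34-positive minus CD34-negative, between libraries of equal number, with a row for each member and a symbol for each of the 4 differences. Apart from Bcl2, each row lies wholly on 1 side of 0, and the number 3 squares of Bcl2l1, Mcl1, Pmaip1, Bax and Bbc3 are nearer to 0 than their number 2 circles.

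Of the BH3-only members, Bid, which links death receptor signals to the mitochondria once caspase 8 has cut it, had lower values in CD34-positive cells by a similar amount in every number. It stood at 57.2, 59.2 and 31.0 FPKM in CD34-positive replicates 1, 2 and 3, against 77.0, 85.9, 49.4 and 53.7 FPKM in CD34-negative replicates 1, 2, 3 and 4. CD34-negative replicates 3 and 4 lay under the 2 higher CD34-positive libraries, and the groups overlapped. The mean was 49.1 ± 15.7 FPKM (SD, n = 3) in CD34-positive libraries, against 66.5 ± 17.7 FPKM (SD, n = 4) in CD34-negative libraries, with a log2 difference of -0.45 (SE 0.39; adjusted p = 0.9999 in limma). With the block it was -0.57 (SE 0.13, adjusted p = 0.0940), and the single differences were -0.53, -0.42, -0.66 and -0.77. Without the block it was -0.15 when CD34-positive replicate 3 was left out.

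Bbc3, a p53 target that can neutralise all survival members, stood at 27.6, 13.2 and 14.0 FPKM in CD34-positive replicates 1, 2 and 3, against 30.2, 22.7, 16.6 and 17.8 FPKM in CD34-negative replicates 1, 2, 3 and 4. Replicate 1 was the highest library of both groups. The log2 difference was -0.28 (SE 0.36; adjusted p = 0.9999 in limma, and -0.37, SE 0.16, adjusted p = 0.235 with the block). Without the block it was -0.61 when CD34-positive replicate 1 was left out, and -0.10, -0.14 and -0.12 when CD34-positive replicate 2, CD34-positive replicate 3 or CD34-negative replicate 1 was. Bad, whose activity is set by phosphorylation downstream of growth factors, stood at 47.1, 31.9 and 11.1 FPKM in CD34-positive replicates 1, 2 and 3, against 56.8, 35.1, 17.6 and 12.4 FPKM in CD34-negative replicates 1, 2, 3 and 4. Its values followed the number far more than the group. The log2 difference was -0.01 (SE 0.63; adjusted p = 0.9999 in limma), and -0.27 (SE 0.16, adjusted p = 0.370) with the block. It was 0.07 when FPKM were rescaled without ribosomal protein genes.

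Pmaip1 and Bcl2l11 went the other way from these 3. Pmaip1, another p53 target, which acts mainly against Mcl1, stood at 14.7, 7.03 and 33.9 FPKM in CD34-positive replicates 1, 2 and 3, against 12.9, 1.51, 14.7 and 13.5 FPKM in CD34-negative replicates 1, 2, 3 and 4. It spanned the widest range of the members, 22.4-fold from its lowest to its highest library, and CD34-negative replicate 2 was the low one. The mean was 18.6 ± 13.8 FPKM (SD, n = 3) in CD34-positive libraries, against 10.6 ± 6.13 FPKM (SD, n = 4) in CD34-negative libraries, with a log2 difference of 0.80 (SE 0.74; adjusted p = 0.9999 in limma) and 1.04 (SE 0.26, adjusted p = 0.101) with the block. Without the block it was 0.16 when CD34-negative replicate 2 was left out, 0.25 when CD34-positive replicate 3 was, and 1.31 when CD34-positive replicate 2 was. It passed as higher in limma only with the block and without a replicate 1 library, which in that fit takes number 3 out (1.41, adjusted p = 0.0290).

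Bcl2l11, which is induced when growth factors are withdrawn and binds every survival member, stood at 11.4, 5.60 and 9.66 FPKM in CD34-positive replicates 1, 2 and 3, against 8.18, 2.23, 8.64 and 3.09 FPKM in CD34-negative replicates 1, 2, 3 and 4. Libraries 4 and 4a of the CD34-negative group differed between themselves, with CD34-negative replicate 3 near CD34-positive replicate 3 and replicate 4 far below it. The mean was 8.88 ± 2.96 FPKM (SD, n = 3) in CD34-positive libraries, against 5.53 ± 3.34 FPKM (SD, n = 4) in CD34-negative libraries, and the log2 difference was 0.71 (SE 0.47; adjusted p = 0.9999 in limma, and 0.74, SE 0.31, adjusted p = 0.223 with the block). Without CD34-negative replicate 2 and without the block it was 0.42. Together the BH3-only members summed to 158, 117 and 99.7 FPKM in CD34-positive replicates 1, 2 and 3, against 185, 147, 107 and 101 FPKM in CD34-negative replicates 1, 2, 3 and 4. Bid held the largest share of that sum in 6 of the 7 libraries (36.2% to 58.3%), and in CD34-positive replicate 3 Pmaip1 (34.02%) was above Bid (31.1%).

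Ratios of members within a library are free of scaling between libraries. The ratio of Bcl2l1 to Bax was 0.436, 0.499 and 0.534 in CD34-positive replicates 1, 2 and 3, against 0.263, 0.124, 0.148 and 0.138 in CD34-negative replicates 1, 2, 3 and 4. No CD34-negative library reached a CD34-positive one, although each gene alone overlapped. The mean ratio was 0.490 ± 0.0494 (SD, n = 3) in CD34-positive and 0.168 ± 0.0637 (SD, n = 4) in CD34-negative cells, and it was 4.04-fold higher in number 2, 1.66-fold in number 3, and 3.599-fold and 3.87-fold in number 4.

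The ratio of Bcl2l1 to Bid was 0.585, 0.778 and 0.579 in CD34-positive replicates 1, 2 and 3, against 0.335, 0.240, 0.187 and 0.118 in CD34-negative replicates 1, 2, 3 and 4. That of Bcl2l1 to Bak1 averaged 0.592 ± 0.0639 (SD, n = 3) in CD34-positive and 0.256 ± 0.113 (SD, n = 4) in CD34-negative cells, and neither ratio overlapped. Of the ratios of Bcl2l1 to the 7 effectors and BH3-only members, 5 did not overlap and were higher in CD34-positive cells (to Bax, Bak1, Bid, Bad and Bbc3). The ratio of Bcl2l1 to any of 9168 genes did so for 31.6% of them, the share against which the 5 of 7 are read. The ratio of Bcl2l1 to Pmaip1 overlapped and changed direction, at 0.480-fold in number 2, 1.14-fold in number 3, and 0.839-fold and 1.13-fold in number 4. That to Bcl2l11 did too, at 0.889-fold, 0.935-fold, 1.74-fold and 0.906-fold. None of the 7 ratios of Mcl1 and none of the 7 of Bcl2 was without overlap (2.65% and 3.84% of genes were higher, 0.502% and 1% lower). The ratio of Bax to Bak1 was 1.52, 1.12 and 1.03 in CD34-positive replicates 1, 2 and 3, against 1.60, 1.57, 1.58 and 1.25 in CD34-negative replicates 1, 2, 3 and 4, lower in the CD34-positive library of each number.

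**Figure D4:**
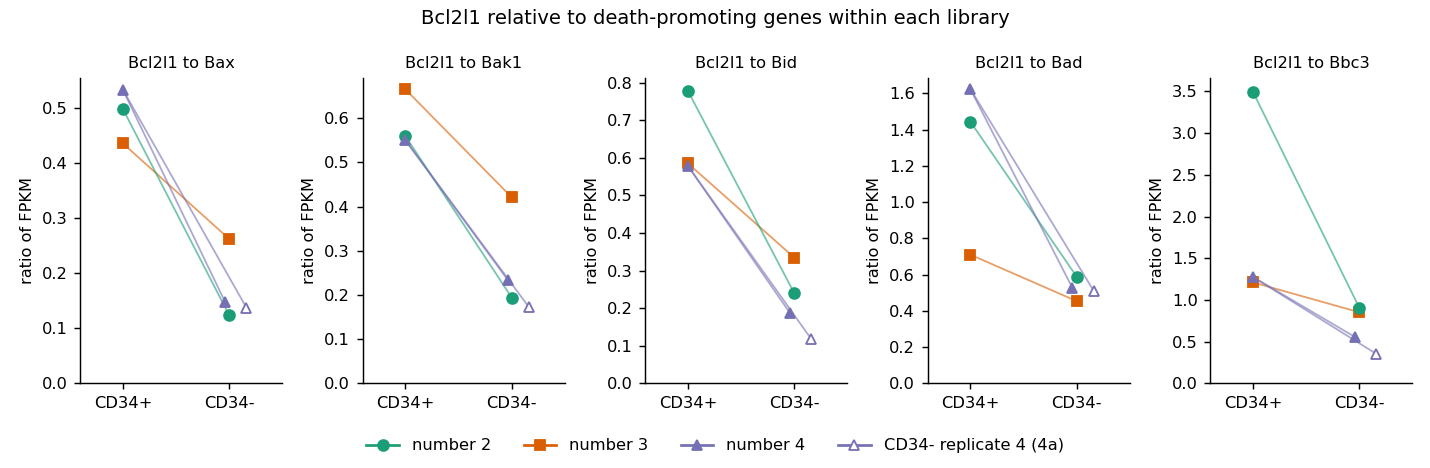
Ratio of the FPKM of Bcl2l1 to that of Bax, Bak1, Bid, Bad and Bbc3 within each library (axes start at 0), CD34-positive on the left and CD34-negative on the right, with lines joining equal numbers. The ratios to Pmaip1 and Bcl2l11, which overlapped between the groups, are not drawn. In each panel the 3 CD34-positive points lie above the 4 CD34-negative points, and the number 3 pair is the closest for Bax, Bak1, Bid, Bad and Bbc3 in fold terms, between 1.42 and 1.75.

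Other family genes were mostly low or differed little. Of 17 further genes of the family all were listed and 8 were tested. Of the others, 4 were listed at 0 in every library (Bcl2a1a, Bcl2a1c, Bcl2a1d and Bcl2l10). Bcl2a1b had 0.0924 FPKM in CD34-positive replicate 3 and was at 0 elsewhere. The Bcl2a1 genes are near-identical copies, so reads are hard to assign to any 1 of them. Without a block, the unadjusted p lay under 0.05 for 1 higher and 1 lower gene (backgrounds of 3.38% and 2.27%), and 0 passed the adjusted threshold. Bcl2l14, a relative, stood at 4.999, 5.28 and 3.25 FPKM in CD34-positive replicates 1, 2 and 3, against 3.85, 1.10, 0.568 and 1.25 FPKM in CD34-negative replicates 1, 2, 3 and 4. Bcl2l13, a mitochondrial relative that takes part in mitophagy, stood at 10.9, 11.7 and 6.57 FPKM in CD34-positive replicates 1, 2 and 3, against 14.8, 29.5, 12.1 and 20.8 FPKM in CD34-negative replicates 1, 2, 3 and 4, lower without overlap (adjusted p = 0.853 in limma). Bnip3l, which clears mitochondria from maturing red cells, averaged 52.8 ± 9.60 FPKM (SD, n = 3) in CD34-positive libraries, against 64.5 ± 13.9 FPKM (SD, n = 4) in CD34-negative libraries. Bcl2l2 (Bcl-w), a survival member, averaged 7.84 ± 1.20 FPKM in CD34-positive libraries, against 9.18 ± 1.86 FPKM in CD34-negative libraries.

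Downstream of the family, 18 genes of caspases, the apoptosome and their inhibitors were all tested, with 0 at the adjusted threshold and a median log2 difference of 0.02. Casp6, an executioner caspase, averaged 38.7 ± 8.72 FPKM (SD, n = 3) in CD34-positive libraries, against 24.0 ± 15.2 FPKM (SD, n = 4) in CD34-negative libraries. Casp8, the initiator at death receptors, averaged 23.3 ± 4.99 FPKM with CD34 against 16.4 ± 6.48 FPKM without it, and the mitochondrial nuclease Endog 6.12 ± 3.69 FPKM with CD34 against 9.08 ± 4.98 FPKM without it. Of the 18 genes, 2 were higher and 4 lower in every equal-number difference, against 21.4% and 18.9% of all tested genes. Casp6 and Casp8 were the higher ones, and Endog was among the lower ones (-0.63, -0.45, -0.75 and -0.78). These 3 overlapped between the groups. With the block their log2 differences were 0.67 (SE 0.20), 0.62 (SE 0.20) and -0.63 (SE 0.14), with adjusted p = 0.133, 0.149 and 0.0931 in limma. Of the 9 outer membrane partners 0 were called at an unadjusted p under 0.05 in either direction (background 5.65%). The channels Vdac1, Vdac2 and Vdac3 and the receptor Bcap31 followed the number. Vdac1 stood at 183, 301 and 124 FPKM in CD34-positive replicates 1, 2 and 3, against 203, 294, 105 and 114 FPKM in CD34-negative replicates 1, 2, 3 and 4.

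Upstream, 11 of 15 genes of p53 and its targets were tested, with 0 at the adjusted threshold. The unadjusted p lay under 0.05 for 1 higher gene (Perp) and 1 lower gene (Gadd45a), where the backgrounds were 3.38% and 2.27%. Perp, a membrane protein induced by p53, stood at 39.1, 47.0 and 32.4 FPKM in CD34-positive replicates 1, 2 and 3, against 31.6, 9.42, 9.16 and 9.24 FPKM in CD34-negative replicates 1, 2, 3 and 4. Gadd45a, a stress gene, went the other way, at 10.1, 4.75 and 6.03 FPKM in CD34-positive replicates 1, 2 and 3, against 17.0, 15.7, 11.8 and 30.9 FPKM in CD34-negative replicates 1, 2, 3 and 4. Neither overlapped between the groups, and Perp separated only narrowly. In this list 2 genes were higher without overlap (Perp and Cdkn1a) and 1 lower (Gadd45a), against 2.67% and 3.01% of all tested genes. Trp53 itself stood at 153, 127 and 56.1 FPKM in CD34-positive replicates 1, 2 and 3, against 224, 243, 92.4 and 130 FPKM in CD34-negative replicates 1, 2, 3 and 4, lower in the CD34-positive library of each number (log2 difference -0.63, SE 0.54, adjusted p = 0.9999 in limma; -0.82, SE 0.17, adjusted p = 0.0931 with the block). Cdkn1a, the p53 target that stops the cell cycle, averaged 137 ± 3.63 FPKM (SD, n = 3) in CD34-positive libraries, against 109 ± 30.9 FPKM (SD, n = 4) in CD34-negative libraries. Of the 11 tested genes of this list, Trp53 included, 3 were higher and 2 lower in every equal-number difference (backgrounds 21.4% and 18.9%). Among the p53 targets named here, Perp, Pmaip1 and Cdkn1a had higher values within each number, and Gadd45a, Bax and Bbc3 lower ones. They were named as members or by smallest p.

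Of 18 genes that control the family from cytokine receptors and kinases, 0 passed the adjusted threshold. The unadjusted p lay under 0.05 for Pim2 (higher, background 3.38%) and Epor (lower, background 2.27%). In every equal-number difference 7 of the 18 were higher and 2 lower (backgrounds 21.4% and 18.9%). Pim2, a kinase that phosphorylates Bad, stood at 105, 111 and 120 FPKM in CD34-positive replicates 1, 2 and 3, against 100.2, 24.0, 20.8 and 12.7 FPKM in CD34-negative replicates 1, 2, 3 and 4. CD34-negative replicate 1 was close to the CD34-positive libraries and the others far below, as they were in Cd34 (log2 difference 1.94, SE 0.63, adjusted p = 0.686 in limma; adjusted p = 0.111 with the block). Its relative Pim1 averaged 27.5 ± 12.0 FPKM (SD, n = 3) in CD34-positive libraries, against 12.9 ± 9.32 FPKM (SD, n = 4) in CD34-negative libraries. Epor, the erythropoietin receptor, whose signal raises Bcl2l1 in erythroid cells, was also counted among the erythroid markers above. It averaged 4.10 ± 2.59 FPKM in CD34-positive libraries, against 21.3 ± 15.7 FPKM in CD34-negative libraries (log2 difference -2.03, SE 0.55, adjusted p = 0.647 in limma). Its direction was opposite to that of Bcl2l1, and a link of Epor to Bcl2l1 was not tested. Foxo1, a factor that can activate Bcl2l11, averaged 5.35 ± 0.732 FPKM in CD34-positive libraries, against 3.15 ± 1.16 FPKM in CD34-negative libraries (adjusted p = 0.901 in limma). Its groups were apart only narrowly, at 4.86 FPKM in CD34-positive replicate 3 and 4.84 FPKM in CD34-negative replicate 1. Of all tested genes 2.67% were higher without overlap. Foxo3, a relative of Foxo1, averaged 8.35 ± 2.54 FPKM in CD34-positive libraries, against 13.2 ± 4.42 FPKM in CD34-negative libraries, and its groups overlapped. The log2 difference of Foxo3 was -0.81 in number 2, 0.26 in number 3, and -0.66 and -1.08 in number 4. A link of Foxo1 or Foxo3 to Bcl2l11 was not tested.

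Of 8 genes of death receptors and their signalling partners 6 were tested. At the adjusted threshold 0 were called, and 1 was higher at an unadjusted p under 0.05 (background 3.38%). It was Tnfrsf1a, a receptor for tumour necrosis factor, at 17.3, 15.9 and 10.1 FPKM in CD34-positive replicates 1, 2 and 3, against 10.1, 1.58, 0.228 and 0.866 FPKM in CD34-negative replicates 1, 2, 3 and 4. CD34-negative replicate 1 again lay near the CD34-positive libraries (log2 difference 2.41, SE 0.68, adjusted p = 0.647 in limma; adjusted p = 0.0931 with the block). Fas was listed at 0 in every library. The kinase Ripk1 averaged 14.2 ± 2.92 FPKM (SD, n = 3) in CD34-positive libraries, against 10.8 ± 3.49 FPKM (SD, n = 4) in CD34-negative libraries. For the adaptors Fadd (11.5 ± 4.93 FPKM with CD34 against 10.4 ± 4.92 without it) and Traf2 (14.0 ± 5.92 against 12.8 ± 5.78 FPKM) the spread within a group exceeded the difference.

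**Figure D5:**
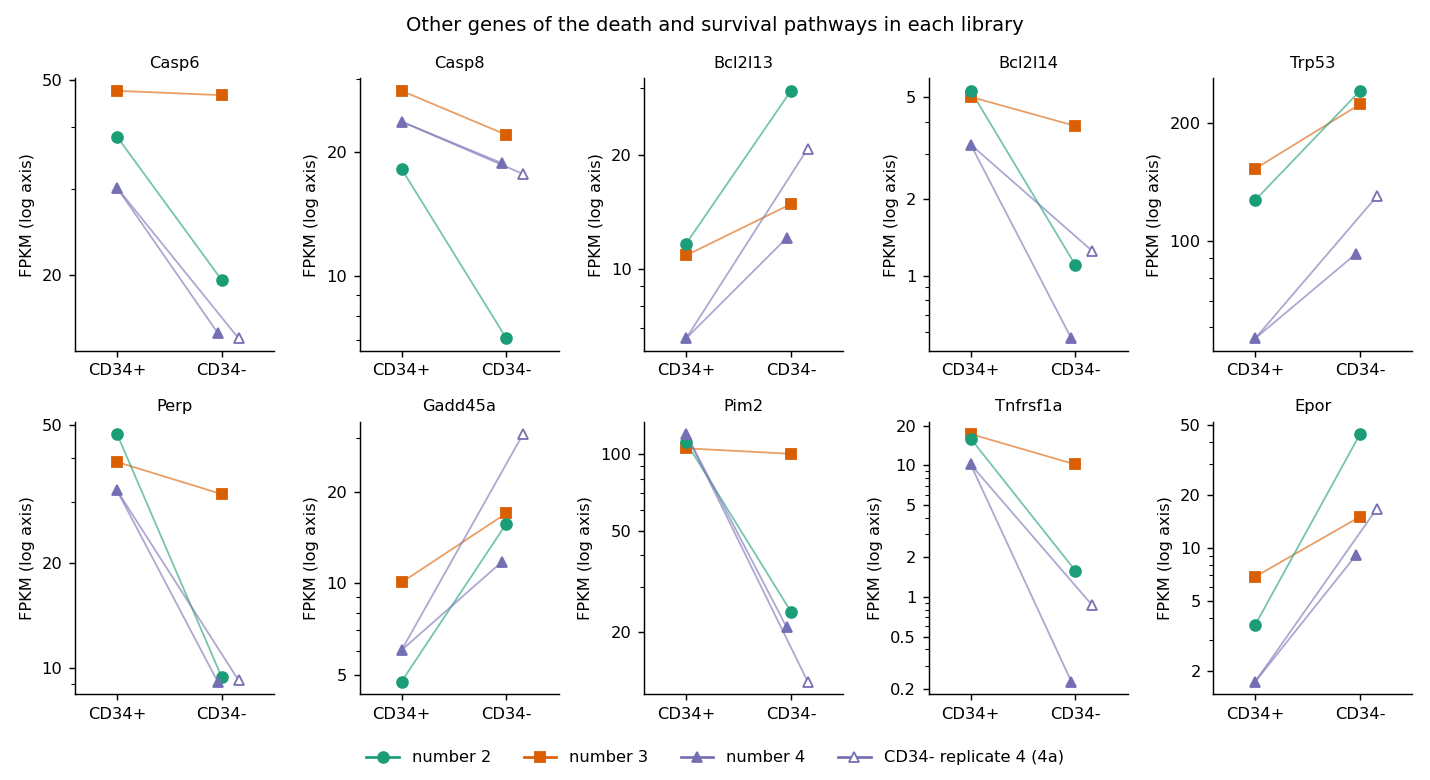
FPKM (log axes, a scale for each gene) of 10 other genes of the death and survival pathways in each library, drawn as for the members. Epor lies at 1.75 to 6.88 FPKM in CD34-positive and 9.10 to 44.4 FPKM in CD34-negative libraries, and CD34-negative replicate 1 (number 3 square) stays close to the CD34-positive libraries for Perp, Pim2 and Tnfrsf1a.

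Genes whose pattern was most like a member were sought after the number means were taken out, by Pearson correlation over the 7 libraries, for the 6 members with enough spread. For Bcl2l1 they were Gm2a (0.999) and Slc25a45 (0.999), for Pmaip1 Snn and Acvrl1 (both 0.999), and for Bcl2l11 Prkx (0.9997) and Mpnd (0.9996). Snn stood at 21.1, 10.3 and 11.6 FPKM in CD34-positive replicates 1, 2 and 3, against 17.98, 1.63, 3.25 and 3.06 FPKM in CD34-negative replicates 1, 2, 3 and 4. For Bax they were Sema4a (0.999) and 2310045N01Rik (0.998), for Bid Cetn4 (0.999) and Nrbf2 (0.998), and for Bcl2 Chrnb1 (0.997). With 7 libraries in 3 numbers, few values are free to vary once the number means are removed, and such correlations are a ranking among 9259 genes only. The difference between the groups was left in, so genes of 1 sign in every equal-number difference tend to strong correlations, positive or negative. Among the members themselves, and with the same limit, Bcl2l1 had a correlation of 0.99 with Mcl1, 0.96 with Pmaip1 and -0.96 with Bid. Without removing the number means it had -0.35 with Mcl1.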

How the data were processed

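The deposited table holds 1 FPKM value per symbol and library in 20464 rows, and per the submitters' processing notes the authors used TopHat2, TopHat and Cuffdiff with the builds mm9 and mm10, without versions. The sources used here do not give the annotation, strand use or any pooling. The header names no unit, and FPKM was read from the values and from Cuffdiff. 105 symbols listed more than once (322 rows) were left out. The 9259 genes that reached 1 FPKM in 3 or more libraries were fitted as log2(FPKM + 1), which understates the change of low genes, with limma 3.58.1 in R 4.3.3 (mean-variance trend, two-sided, Benjamini-Hochberg adjustment over all tested genes, threshold 0.05). Effects are CD34-positive minus CD34-negative, with moderated standard errors. The labels do not say that replicates are separate cultures, so p-values measure only how far these libraries vary, and that may be technical.

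Deviations from the group means correlated at 0.70 in number 3, 0.92 in number 2, and 0.82 and 0.85 in number 4. The main fit, given without mention of a block, left this pairing out. A further fit took the description number as a block, and libraries of equal number were also compared directly. Both fits were tested on simulated data. Ratios, shares and correlations were described without a test. Alternatives changed the pseudocount, filter, scaling, variance model, block and libraries. The members and lists were chosen with earlier results of these data known. Named genes are the members, Cd34, up to 4 genes of each list with the smallest p, and 2 genes most like each member with a standard deviation of at least 0.25 on the centred scale. Gata1, Gata2 and Foxo3 were named after their values were seen. A few genes chosen by this rule are not reported here. Figures were drawn with matplotlib 3.10.9.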

Additional observations from a re-analysis of the deposited data

Results flagged for a closer look

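In 5 of 35 named genes, 1 of the 4 CD34-negative libraries stood well away from the other 3 in log2(FPKM + 1). Chance flags about 1 in 20 groups, and over all 9259 tested genes 5.95% were so. The gap to the nearest library was 0.933 of the group's range for Pmaip1 and 0.971 for Endog, both in CD34-negative replicate 2. It was 0.979 for Perp and 0.851 for Pim1, both in CD34-negative replicate 1, the library with the most Cd34 of that group. For Cdkn1a it was 0.927, in CD34-negative replicate 4. The cause was not tested.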

How the results depend on the processing

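Over 30 alternative fits, 291 of 299 member differences kept their sign, and Bcl2 has no value with a filter of 5 FPKM, which removes it. With 1 library left out and no block, Mcl1 ranged from -0.00126 to 0.38, Bax from -0.69 to 0.0221, Bak1 from -0.44 to 0.21 and Bad from -0.43 to 0.57, and these 4 reversed. With the replicate block and 1 library left out, the same 4 ranged from 0.25 to 0.41, -0.74 to -0.52, -0.32 to -0.24 and -0.34 to -0.18. Bad was 0.065 when rescaled without ribosomal protein genes. Pmaip1 ranged from 0.16 to 1.31 without the block and from 0.77 to 1.41 with it, and it passed at 1.41 in limma with the replicate block and without either replicate 1 library, where members past the threshold were 1 higher (0 in every other fit). Genes past the threshold, higher and lower, were 230 and 81 with the replicate block when CD34-positive replicate 1 was left out. They were 231 and 81 with CD34-negative replicate 1 left out, 32 and 125 when it was CD34-negative replicate 3, and 1 and 0 for CD34-positive replicate 3. They were 7 and 3 without CD34-negative replicate 1 and no block, and 0 and 0 in every other fit, the replicate block on all libraries included. Bcl2l1 ranged from 0.74 to 1.48 and Bid from -0.64 to -0.15. The count of members lower in every equal-number difference was 1, against 5, when rescaled without ribosomal protein genes. The causes were not tested. The rescaling without small RNA genes, the fits without both replicate 1 libraries or with the block and without number 4, and the recounts of signs were chosen after seeing the data. Depth is unknown.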
